A study of Mus musculus with 2 samples.

Results

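The genes described here encode glycosyltransferases, the Golgi enzymes that extend sugar chains on proteins and lipids, and the sulfotransferases that decorate those chains. They were taken by a rule on the symbol, chosen with earlier results of these data known. It keeps the rows of the deposited table whose symbol starts with St3gal, St6gal, St8sia, B3gnt, B3galt, B4galt, B4galnt, Galnt, Fut, Mgat, Gcnt or Chst followed by a number or the letter n. The rule found 89 of the 16906 genes in the table. The word Golgi stood in the deposited cellular component annotation of 86 of the 89 members (96.6%), against 7.17% of all genes in the table.

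RNA was sequenced from luminal cells, the inner epithelial layer of the mammary duct, which were sorted from glands of C57BL/6 mice aged 8 weeks. The Ctrl library came from mice of genotype miR-200c/141-flox/flox, whose floxed microRNA cluster can be deleted but which carry no Cre driver. The CKO library came from K8-CreERT2;miR-200c/141-flox/flox mice, in which a tamoxifen-inducible Cre recombinase under the keratin 8 promoter acts on the cluster in luminal cells. Neither microRNA is a row of the table, so its loss was not checked here. Mice of both genotypes received tamoxifen, and the labels give the interval afterwards as 3 days in one field and 4 weeks in another. Each group is 1 library of about 20000 sorted cells, the number of mice behind it is not stated, and an effect of the Cre driver cannot be told apart from that of the deletion. With 1 library per group there is no replicate check, no test across samples was possible, and no p-value was computed.

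Levels are FPKM, fragments scaled to transcript length and to library size, so they can be compared between genes. Ratios are CKO over Ctrl, on the log2 scale after adding 0.5 FPKM to both values. This addition shrinks the ratio of weakly expressed genes. Each ratio is accompanied by a 95% exact (Clopper-Pearson) interval of the log2 read ratio, from read numbers recovered from the deposited p-values. The recovered reads total 12506838 in Ctrl and 11455571 in CKO. This interval holds the counting error alone, and it treats all reads as independent. PCR copies of a molecule are not independent reads, so it may be too narrow. Genes whose mean over the 2 libraries reached 1 FPKM are called measured. Those called higher or lower in CKO differed by 1.5-fold or more, with equality outside the interval.

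Sugar chains are built stepwise, and each enzyme acts on the product of an earlier one. Mucin-type O-glycans start when a GALNT enzyme links N-acetylgalactosamine to serine or threonine, and they are then extended and branched. N-glycans arrive in the Golgi as mannose-rich chains that are trimmed, branched by the MGAT enzymes, extended with galactose and capped with sialic acid or fucose. Glycolipids, the gangliosides among them, are built from lactosylceramide by a parallel set of enzymes. In the mammary gland the same machinery serves the mucins and the milk fat globule, and the galactosyltransferase B4GALT1 joins with alpha-lactalbumin to make lactose.

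Of the 89 members, 49 were measured and 40 lay under a mean of 1 FPKM. The measured members were close to evenly expressed in the 2 libraries: 34 of 49 (69.4%) lay within 1.2-fold, against 72.5% of all measured genes. Lower in CKO by the rule were 4 of 49 (8.16%): Gcnt1, Mgat5, B4galt5 and Galnt12, against a background of 2.96% of all 11667 measured genes. Higher in CKO was 1 of 49 (2.04%), Galnt15, against a background of 2.25%. The share higher was near the background, and the share lower was above it but rests on 4 genes and was not tested. The median log2 ratio of the measured members was -0.09, with quartiles of -0.20 and 0.05, and the median of all measured genes was -0.03. Ratios below 0 were found for 34 of 49 members (69.4%) and for 54.8% of all measured genes. After centring on the median of all measured genes, 31 of the 49 members lay below 0.

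An interval that excluded equality, whatever the size of the difference and so including genes past the rule, was common at this depth. The interval lay below 0 for 12 of 49 members (24.5%), against 23% of all measured genes, and above 0 for 7 of 49 (14.3%), against 16.1%. These shares were near the background. The ratio varied with transcript length over the whole table: with the measured genes split by length into 3 classes of about equal size, the median was 0.08 in the shortest class, -0.02 in the middle class and -0.12 in the longest. The 25 members in the middle class had a median of -0.09 and the 20 members in the longest class a median of -0.15. Only 4 members fell in the shortest class, with a median of 0.19. The part of length in the members' ratios was not tested.

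The cells carried the luminal markers of their label: Krt8, Krt18, Epcam and 10 further luminal markers were all measured, 1 higher and 0 lower. Their summed FPKM was 14269.8 in Ctrl and 18935.35 in CKO, and Krt18, the marker past the rule, made up most of the difference, at 6606.79 and 10398.36. Ratios below 0 were found for 6 of the 13, among them Pgr (-0.44) and Prlr (-0.30), and these 6 had intervals wholly below 0. Markers of other cells differed between the libraries, and their part in the ratios of the members was not tested. Of 9 measured basal myoepithelial markers 7 were higher in CKO and 1 lower, and the summed FPKM of the 10 listed was 160.64 and 293.55. Myeloid markers (8 measured of 10, 2 higher, 0 lower) summed to 43.31 and 70.3. Endothelial markers (6 measured of 7, 0 higher, 1 lower) summed to 34.21 and 35.91, and fibroblast markers (4 of 6, 0 and 0) to 40.29 and 42.56. Dcn, at 25.57 and 30.74 FPKM with an interval above 0, made up most of the fibroblast sum. The interval of Col1a2 lay below 0, and those of Col3a1 and Col1a1 held 0. Pdgfra and Lum, fibroblast markers under a mean of 1 FPKM, had log2 ratios of -0.94 and -0.92 with intervals wholly below 0. The fibroblast markers were thus not level. Adipocyte markers (3 of 4, 0 higher, 1 lower) summed to 59.29 and 79.42, and lymphocyte markers (1 of 7, 1 higher, 0 lower) to 1.99 and 3.15. Cd3e and Nkg7, both lymphocyte markers, had 5 and 1 reads in Ctrl and 0 in CKO. In bulk samples fewer cells of a type and less RNA per cell cannot be told apart.

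**Figure D1:**
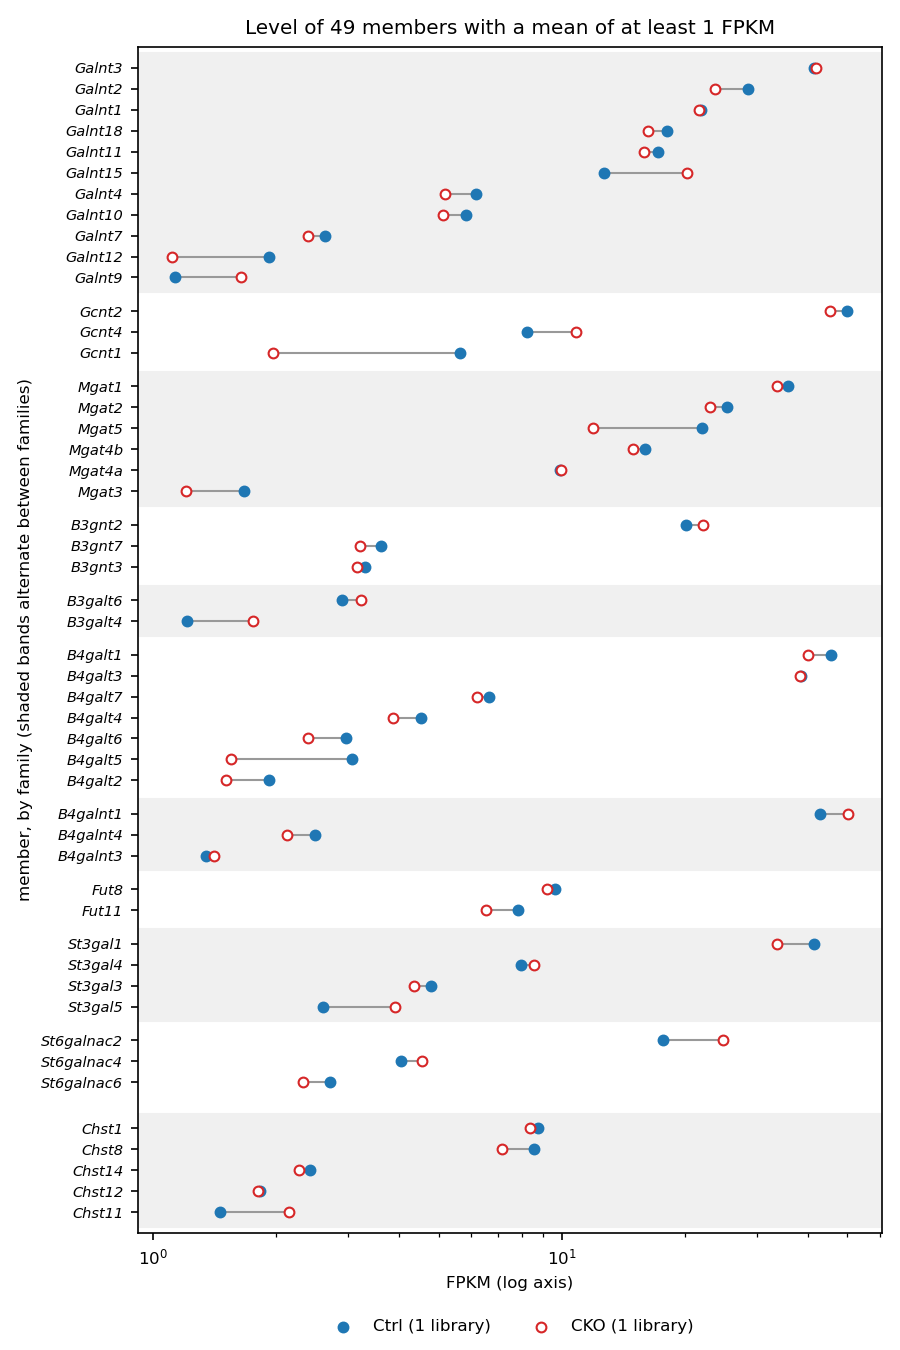
FPKM (log axis) of the 49 measured members in the Ctrl library (filled points) and the CKO library (open points), with 1 library per group and members grouped by family. The points of most members nearly coincide; Gcnt1 at 5.64 and 1.97, Mgat5 at 22.05 and 11.9 and B4galt5 at 3.07 and 1.55 are furthest apart toward Ctrl, and Galnt15 at 12.68 and 20.23 toward CKO.

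The abundance of these enzymes was uneven. The 15 members with the highest mean held 71.9% of the summed FPKM of all members in Ctrl and 71.3% in CKO. The sum over all 89 was 648.62 FPKM in Ctrl and 620.93 in CKO. By the mean of both libraries the first was Gcnt2, which adds the branches of the I blood group antigen, at 49.8 FPKM in Ctrl and 45.39 in CKO. Next was B4galnt1, which makes the gangliosides GM2 and GD2, at 42.92 and 50.24 FPKM. Then came B4galt1, the main galactosyltransferase of N-glycans, at 45.59 and 40.14 FPKM. Galnt3, a starter of mucin-type O-glycans, stood at 41.38 and 41.88 FPKM, and B4galt3, another galactosyltransferase, at 38.61 and 38.27. In Ctrl B4galt1 lay above B4galnt1, and in CKO B4galnt1 lay above Gcnt2. None of these 5 differed by as much as 1.2-fold.

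**Figure D2:**
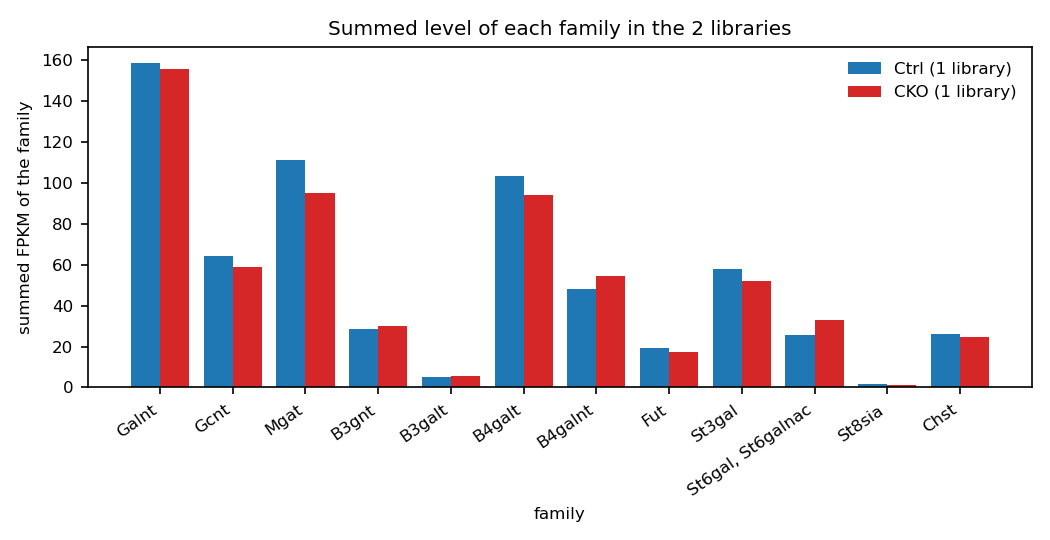
Summed FPKM of each family in the Ctrl and CKO libraries (bars start at 0, 1 library each). The Galnt bars are the tallest (158.3 and 155.48 FPKM) and the St8sia bars the shortest (1.46 and 1.19).

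The GALNT enzymes, which start mucin-type O-glycans, were the family with the highest summed level and went in both directions. Of 14 members 11 were measured, with 1 higher, 1 lower and a median log2 ratio of -0.12. Galnt15 (Entrez gene 78754, chromosome 14 at 32028782 to 32062204 of GRCm38.p6) stood at 12.68 FPKM in Ctrl and 20.23 in CKO, from 786 and 1270 reads. Its level was thus higher in CKO, by a log2 ratio of 0.65 (1.57-fold). The read ratio of Galnt15 was larger, at 0.82 with an interval of 0.69 to 0.95, and the FPKM ratio lies outside this interval. Only 232 of the 11667 measured genes had a higher ratio.

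Galnt12 (Entrez gene 230145, chromosome 4 at 47091894 to 47123058) was weakly expressed: 1.92 FPKM in Ctrl against 1.11 in CKO, from 53 and 28 reads. Its log2 ratio of -0.59, a 1.503-fold difference, passed the rule by a narrow margin, and the interval was wide, from -1.51 to -0.11. The call of Galnt12 was lost when ratios were centred on all measured genes (-0.56) or with 1 FPKM added (-0.47).

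With 0.5 FPKM added, the abundant starters other than Galnt15 lay within 1.2-fold, Galnt2 only narrowly (1.199-fold). Galnt1, a broadly expressed starter, stood at 21.9 and 21.69 FPKM, and Galnt2, another one, at 28.5 and 23.68. The log2 ratio of Galnt2 was -0.26 with an interval of -0.38 to -0.15, a difference that stayed under 1.5-fold. Galnt18 stood at 18.13 and 16.23 FPKM, and Galnt11 at 17.19 and 15.9. Galnt10 and Galnt7, which prefer peptides that already carry a sugar, had log2 ratios of -0.17 and -0.12, and Galnt9 0.39 with an interval of -0.31 to 0.97. Galnt4 had a log2 ratio of -0.23 (interval -0.47 to -0.03), but its gene overlaps Poc1b on the same strand, so that the reads of these genes may not be separable. The same holds for Galnt2 with Gm20388, B3gnt2 with Gm28048 and B4galt2 with Ccdc24. Galnt11, Mgat2, B4galt3, B4galnt1 and B4galnt3 overlap genes on the opposite strand. Without strand, reads in a stretch shared by exons of both genes cannot be told apart. Overlap was judged on whole gene spans, introns included, and shared exons were not checked.

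Galnt6, Galnt14 and Galnt16 were under a mean of 1 FPKM. Galnt6 stood at 0.65 FPKM in Ctrl and 0.26 in CKO, from 47 and 17 reads, an interval of -2.23 to -0.51 that was wholly toward Ctrl although the gene was too weak to count as measured. Galnt14 had 3 and 1 reads and Galnt16 had 8 in each library.

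The GCNT enzymes branch O-glycans and polylactosamine chains, and one of them gave the lowest ratio of all members. Gcnt1 (Entrez gene 14537, chromosome 19 at 17326141 to 17372844), which makes the core 2 branch of O-glycans, stood at 5.64 FPKM in Ctrl and 1.97 in CKO. Behind these values were 327 reads in Ctrl and 103 in CKO. The log2 ratio of -1.31 (2.49-fold lower in CKO) had a read interval of -1.87 to -1.22. Only 27 of the 11667 measured genes had a lower ratio. Gcnt1 was the only member at least 2-fold lower with an interval that excluded equality, where 0.54% of measured genes were, and no member was 2-fold higher, where 0.746% were. It was also the only member that the authors' deposited table calls down, beside 0.639% of all its genes. The same table calls 0 members up, beside 0.615% of all genes.

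Of the other core 2 enzymes only Gcnt4 was measured, with a ratio above 0. It stood at 8.24 FPKM in Ctrl and 10.84 in CKO, which gave a log2 ratio of 0.38 (interval 0.23 to 0.57), under the 1.5-fold rule. Gcnt2 had a log2 ratio of -0.13 (interval -0.23 to -0.06). Gcnt3, the mucin-type core 2 and core 4 enzyme, had 1 and 5 reads, and Gcnt7 had 9 and 12. The summed FPKM of Gcnt1, Gcnt2, Gcnt4 and the 2 weak members was 64.15 in Ctrl and 58.98 in CKO.

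The MGAT enzymes add the branches of N-glycans, and 5 of the 6 measured members had ratios below 0, with a median of -0.12. Mgat5 (Entrez gene 107895, chromosome 1 at 127204919 to 127488334) adds the beta-1,6 branch that carries long polylactosamine chains. It stood at 22.05 FPKM in Ctrl and 11.9 in CKO, from 2154 and 1139 reads. The log2 ratio was -0.86 (1.82-fold lower in CKO) with an interval of -0.90 to -0.69. Only 95 of the measured genes had a lower ratio. Tmem163 overlaps Mgat5 on the opposite strand by whole gene span, and shared exons were not checked. The sources used here do not say whether counting used strand, so reads in any shared exon stretch cannot be told apart.

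The other MGAT enzymes were not past the rule. Mgat1, which adds the first branch, stood at 35.8 and 33.62 FPKM, and Mgat2, which adds the second and opens the way to complex N-glycans, at 25.41 and 23. Mgat4a and Mgat4b, which add the beta-1,4 branch, stood at 9.92 and 9.96 FPKM and at 15.96 and 14.93. Mgat3, which adds the bisecting N-acetylglucosamine, stood at 1.67 and 1.2 FPKM, a log2 ratio of -0.35 under the rule with an interval of -1.01 to -0.09. Mgat4c and Mgat5b had at most 7 reads in either library. In Ctrl Mgat5 was more abundant than Mgat4b and in CKO less abundant.

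The B4GALT enzymes add galactose in beta-1,4 linkage, and all 7 were measured with ratios below 0 as deposited, although centring on all measured genes took B4galt3 to 0.01. Their median was -0.20 and 1 was lower by the rule. B4galt5 (Entrez gene 56336, chromosome 2 at 167298444 to 167349178), one of the enzymes that make lactosylceramide, the precursor of gangliosides, stood at 3.07 FPKM in Ctrl and 1.55 in CKO. Behind these values were 162 and 75 reads. The log2 ratio was -0.80 (1.74-fold lower in CKO), with an interval of -1.40 to -0.58, and 122 measured genes had a lower ratio. B4galt6, the other lactosylceramide synthase, stood at 2.97 and 2.39 FPKM, which gave a log2 ratio of -0.26 (interval -0.62 to -0.01).

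B4galt1, the partner of alpha-lactalbumin in lactose synthesis, had a log2 ratio of -0.18 (interval -0.28 to -0.11). Lalba, which encodes alpha-lactalbumin, stood at 29.09 and 22.98 FPKM, which gave a log2 ratio of -0.33 (interval -0.62 to -0.07). Neither reached 1.5-fold. B4galt3 had a log2 ratio of -0.01 and B4galt7, which adds galactose to the linker of glycosaminoglycans, -0.09. B4galt2 and B4galt4 had ratios of -0.27 and -0.20, with intervals that held 0.

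Enzymes of later ganglioside steps had ratios on both sides of 0, none past the rule: St3gal5, B4galnt1 and B3galt4 lay above 0, and St3gal1 (-0.29) and St6galnac6 (-0.18), which can also act on gangliosides, below. They were put together after their values were seen. St3gal5, the GM3 synthase that acts directly on lactosylceramide, stood at 2.61 FPKM in Ctrl and 3.91 in CKO, which gave a log2 ratio of 0.50 (interval 0.10 to 1.01), under the rule. B4galnt1, the next enzyme, had a log2 ratio of 0.22 (interval 0.09 to 0.31). B3galt4, which makes GM1, stood at 1.21 and 1.76 FPKM, and its interval of -0.27 to 1.37 held 0. St8sia1, the GD3 synthase, was scarcely expressed, at 0.3 FPKM in Ctrl and 0.11 in CKO, from 23 and 5 reads. The read pair of St8sia1 was found only in a wider search and is less certain. Differences between these ratios were not tested.

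The extension enzymes of polylactosamine and related chains gave no member past the rule. B3gnt2, the main polylactosamine synthase, stood at 20.12 and 22.18 FPKM, which gave a log2 ratio of 0.14 (interval -0.01 to 0.30). B3gnt3 and B3gnt7, which extend O-glycans and keratan sulfate chains, stood at 3.3 and 3.16 FPKM and at 3.62 and 3.21. B3gnt4, B3gnt5, B3gnt6, B3gnt8 and B3gnt9 were not measured, with FPKM from 0.02 to 0.77. Among the B3GALT enzymes B3galt6, which acts on the glycosaminoglycan linker, stood at 2.9 and 3.23 FPKM, and B3galt1, B3galt2 and B3galt5 were not measured. The N-acetylgalactosamine transferases B4galnt3 and B4galnt4 stood at 1.35 and 1.41 FPKM and at 2.49 and 2.13. B4galnt2, the enzyme of the Sd(a) antigen, lay just short of the minimum, at 1.23 and 0.71 FPKM from 47 and 24 reads.

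**Figure D3:**
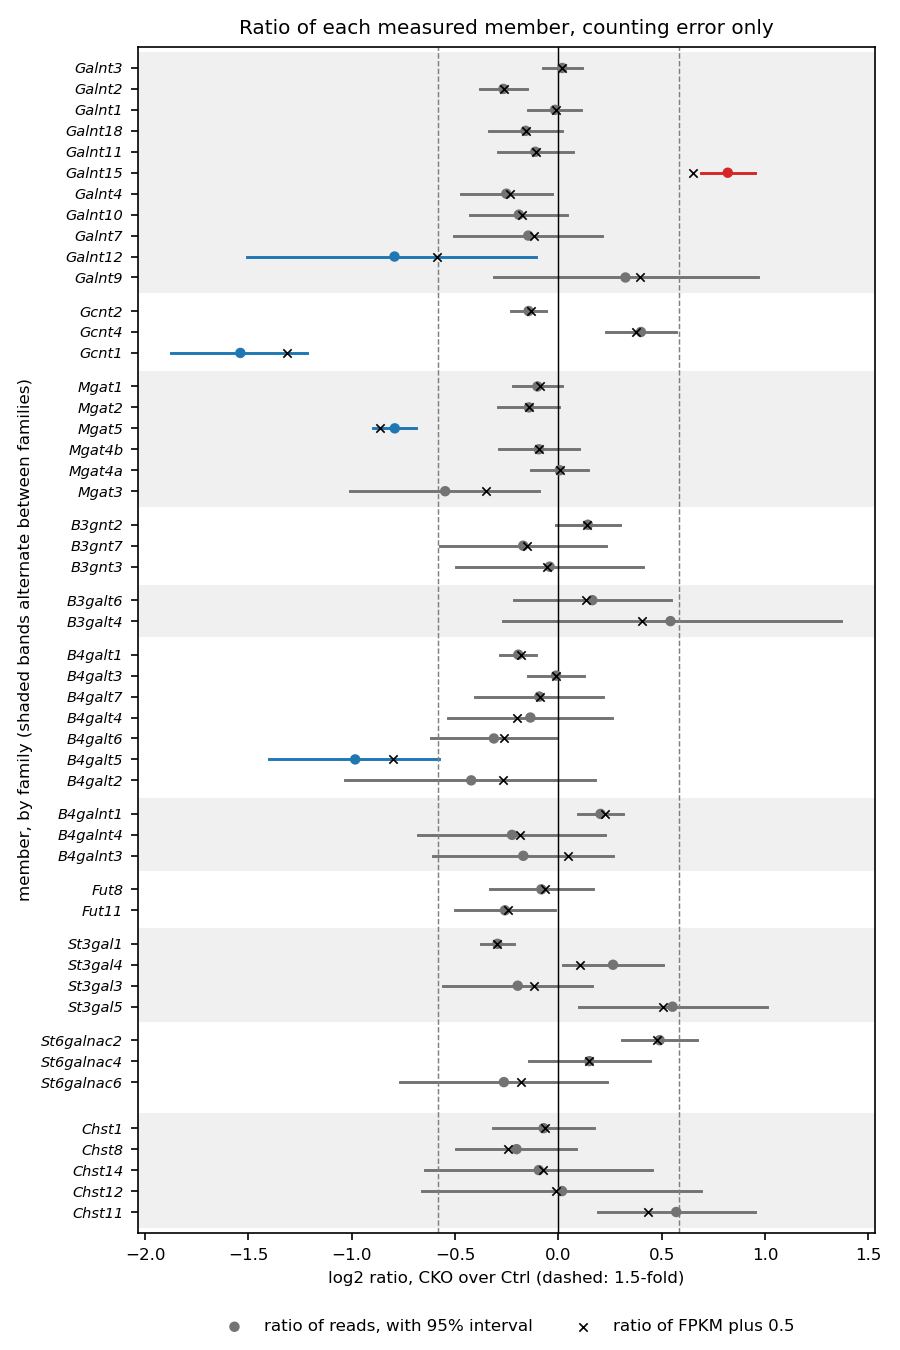
Log2 ratio, CKO over Ctrl, of the 49 measured members: dots give the read ratio with its 95% counting interval, crosses the ratio of FPKM plus 0.5, and dashed lines 1.5-fold. Red marks the member higher by the rule (Galnt15), blue the 4 lower (Gcnt1, Mgat5, B4galt5, Galnt12), and grey the other 44.

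Sialyltransferases, which cap chains with sialic acid, gave no measured member past the rule. St3gal1, which caps the core 1 O-glycan, was the most abundant of them at 41.48 FPKM in Ctrl and 33.72 in CKO. Its log2 ratio of -0.29 had an interval of -0.37 to -0.22. St6galnac2, which adds sialic acid to the first sugar of O-glycans, was the more abundant in CKO, with 17.7 FPKM in Ctrl and 24.84 in CKO. The log2 ratio of St6galnac2 was 0.48 with an interval of 0.31 to 0.67, a difference of 1.39-fold. St3gal4 stood at 7.93 and 8.55 FPKM, and its read ratio of 0.26 was larger than its FPKM ratio of 0.10. St3gal3, St6galnac4 and St6galnac6 had log2 ratios of -0.12, 0.15 and -0.18, with intervals that held 0.

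The remaining sialyltransferases were weak in these luminal cells. St6gal1, the enzyme of alpha-2,6 sialic acid on N-glycans, stood at 0.87 and 0.77 FPKM. St3gal6 stood at 0.25 and 0.82 FPKM from 10 and 25 reads, an interval of 0.34 to 2.67 toward CKO in a gene under the minimum. All 4 alpha-2,8-sialyltransferases, which make disialic and polysialic acid, were under a mean of 1 FPKM, and their most abundant member was St8sia6 at 0.83 and 0.94. St8sia2 had 7 reads in Ctrl and 0 in CKO, and St6galnac1, the enzyme of the sialyl-Tn antigen, 3 and 0. A count of 0 allows up to 3 reads in either gene.

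Fucosyltransferases were represented by 2 measured members of 8. Fut8, which adds the core fucose of N-glycans, stood at 9.64 and 9.2 FPKM, and Fut11 at 7.82 and 6.53, which gave a log2 ratio of -0.24 (interval -0.50 to -0.02). Fut1 and Fut2, which make H antigens, and Fut4, Fut7 and Fut9, which make Lewis x structures, lay between 0.05 and 0.52 FPKM. Fut10 stood at 0.56 and 0.72. The 6 weak genes Fut1, Fut2, Fut4, Fut7, Fut9 and Fut10 had from 1 to 25 reads in a library, and their intervals held 0.

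Carbohydrate sulfotransferases had 5 measured members of 13, none past the rule. The most abundant were Chst1, which sulfates keratan sulfate, at 8.74 and 8.34 FPKM, and Chst8, which sulfates N-acetylgalactosamine on glycoproteins, at 8.54 and 7.13. Chst11, a chondroitin 4-sulfotransferase, stood at 1.46 and 2.15 FPKM, which gave a log2 ratio of 0.44 (interval 0.19 to 0.95). The related enzymes Chst12 for chondroitin and Chst14 for dermatan sulfate had ratios of -0.01 and -0.08 with intervals that held 0. Among the weak members Chst5 stood at 1.2 and 0.45 FPKM from 29 and 10 reads, and Chst13 had 6 reads in Ctrl and 0 in CKO, which allows up to 3. Without the minimum of 1 FPKM, Chst5, Chst13 and Galnt6 would add to the lower members, making 7, and St3gal6 to the higher, making 2, against 3% and 2.25% of all 16906 genes.

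The microRNAs of the floxed cluster pair with messenger RNAs through their seed, bases 2 to 8, and the mature sequences are shown because the members were searched for matches to them. The sequences are from RefSeq on GRCm38.p6, from the minus strand of chromosome 6 at 124718324 to 124718346 and 124717917 to 124717938, with the seed in capitals, and their seeds differ by a single base.
miR-200c-3p: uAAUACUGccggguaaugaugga
miR-141-3p: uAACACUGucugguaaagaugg

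Matches to the seeds, that is CAGTATT and CAGTGTT in the same order, were sought on the transcript strand in the longest 3' UTR that GENCODE M21 (GRCm38) lists for a gene. All 89 members had such a UTR. A match to either 7-mer was present in 26 of 89 members (29.2%), against 28% of 16184 genes with a UTR of at least 30 bases. Among measured members it was 11 of 49 (22.4%), against 29.9% of 11445 measured genes. A match is a description of the letters and not a shown site.

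Of the members past the rule, none of Gcnt1, Mgat5, B4galt5, Galnt12 and Galnt15 held a match. Over all measured genes with a UTR, 3424 had a match and 8021 had none. Those higher by the rule were 39 of the 3424 with a match and 187 of the 8021 without. Those lower were 102 with and 216 without, of the same totals. With 5 members past the rule, no share is read from this. The median log2 ratio was -0.12 over the 11 measured members with a match, whose ratios ran from -0.26 to 0.50. It was -0.09 over the 38 without one. Over all measured genes the medians were -0.08 with a match and -0.01 without. Over all measured genes the UTRs with a match were longer, at a median of 2318 bases against 828. The measured members had medians of 1246 bases with a match and 1340.5 without.

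**Figure D4:**
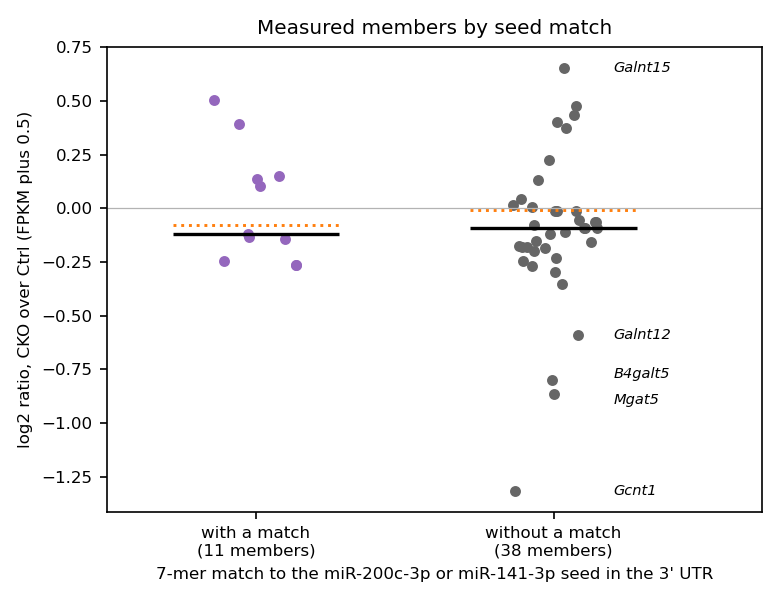
Log2 ratio, CKO over Ctrl, of measured members with (11) and without (38) a 7-mer match to either seed in the 3' UTR; solid bars are the medians of -0.12 and -0.09, and dotted bars the medians of -0.08 and -0.01 over all measured genes. The 5 named members past the rule all lie in the group without a match.

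The sites of 10 of the 11 measured members with a match are printed, with the match in capitals and 8 bases on each side, so that the letters can be set beside the ratios. Those of B4galt6 are not printed. B3gnt2 holds a match to each microRNA. The match of Fut11 lies past the RefSeq end of the gene (20700197) and within the GENCODE UTR only. In Gcnt2 and Mgat2 an A follows the match, a feature of the strongest class of seed sites.
B3gnt2, miR-200c-3p, chr11:22835570-22835576, minus strand, exon 2 of 2: tcacccagCAGTATTgtccttgt
B3gnt2, miR-141-3p, chr11:22835100-22835106, minus strand, exon 2 of 2: tttgtataCAGTGTTtgtgaaat
Fut11, miR-200c-3p, chr14:20700258-20700264, plus strand, exon 3 of 3: ttcagtttCAGTATTctagcact
Galnt2, miR-141-3p, chr8:124343552-124343558, plus strand, exon 16 of 16: atatacctCAGTGTTccatcacg
Galnt9, miR-141-3p, chr5:110620950-110620956, plus strand, exon 6 of 6: cttttctaCAGTGTTcccccaac
Gcnt2, miR-141-3p, chr13:40960125-40960131, plus strand, exon 3 of 3: aatggtctCAGTGTTattaatga
Mgat2, miR-200c-3p, chr12:69186512-69186518, plus strand, exon 1 of 1: gtcattttCAGTATTactgattc
St3gal3, miR-141-3p, chr4:117932745-117932751, minus strand, exon 12 of 12: tctctaatCAGTGTTtggtgtat
St3gal4, miR-141-3p, chr9:35046809-35046815, minus strand, exon 11 of 11: acacaataCAGTGTTctgcccac
St3gal5, miR-141-3p, chr6:72153873-72153879, plus strand, exon 7 of 7: tttgaagtCAGTGTTggattttg
St6galnac4, miR-200c-3p, chr2:32598952-32598958, plus strand, exon 6 of 6: ttggctctCAGTATTcagaagcc

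Of these 11 members 5 had log2 ratios above 0: St3gal5 (0.50), Galnt9 (0.39), St6galnac4 (0.15), B3gnt2 (0.14) and St3gal4 (0.10). The others lay below 0: St3gal3 (-0.12), Gcnt2 (-0.13), Mgat2 (-0.14), Fut11 (-0.24), Galnt2 (-0.26) and B4galt6 (-0.26). None reached 1.5-fold.

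Of the genes that supply or act beside these enzymes, 64 of 69 listed genes were measured, with 1 higher (1.56%) and 2 lower (3.13%), shares near the background. Their median log2 ratio was -0.07. Both lower genes belong to the list of N-glycan trimming enzymes. Man1a, a mannosidase that removes the outer mannoses, stood at 52.69 FPKM in Ctrl and 30.54 in CKO, which gave a log2 ratio of -0.78 (interval -0.89 to -0.71). Man2a1, which removes 2 further mannoses once Mgat1 has acted, stood at 20.24 and 12.25 FPKM, which gave a ratio of -0.70 (interval -0.79 to -0.55).

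The other trimming enzymes differed less. The glucosidase gene Ganab stood at 63.23 and 56.53 FPKM, and Man1a2, Man1c1 and Man2a2 had log2 ratios of -0.25, -0.26 and -0.07. The list of 8 trimming genes had a median of -0.21.

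Synthesis of the sugar and sulfate donors, 19 measured genes, had 0 past the rule and a median of -0.11. Its most abundant members were Uap1, which makes the donor of N-acetylglucosamine, at 69.08 and 67.72 FPKM, and Papss1, which makes the sulfate donor, at 67.71 and 62.41. The 7 transporters that carry donors into the Golgi had 0 past the rule and a median of -0.05, led by the sulfate donor transporter Slc35b2 at 25.8 and 27.71 FPKM and Slc35b3 at 17.99 and 17.41. Both genes of the core 1 step stayed under the rule: C1galt1, which makes the core that Gcnt1 branches, stood at 15.3 and 12.87 FPKM, and its chaperone C1galt1c1 at 7.24 and 8.84. Glycosaminoglycan enzymes, 16 measured of 21, had 0 past the rule and a median of -0.07, led by the heparan sulfate enzyme Ndst1 at 71.29 and 65.4 FPKM and the chain polymerase gene Ext2 at 31.31 and 27.77. Of 12 mucin and carrier genes, the mucin-like gene Glycam1 alone was higher, at 0.13 FPKM in Ctrl and 7.64 in CKO from 1 and 54 reads, with an interval of 3.34 to 11.21, and the median was 0.01. The membrane mucin Muc1 stood at 48.55 and 39.84 FPKM, and the abundant carriers Epcam and Sdc4 at 1189.5 and 1232.98 and at 461.98 and 517.47.

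**Figure D5:**
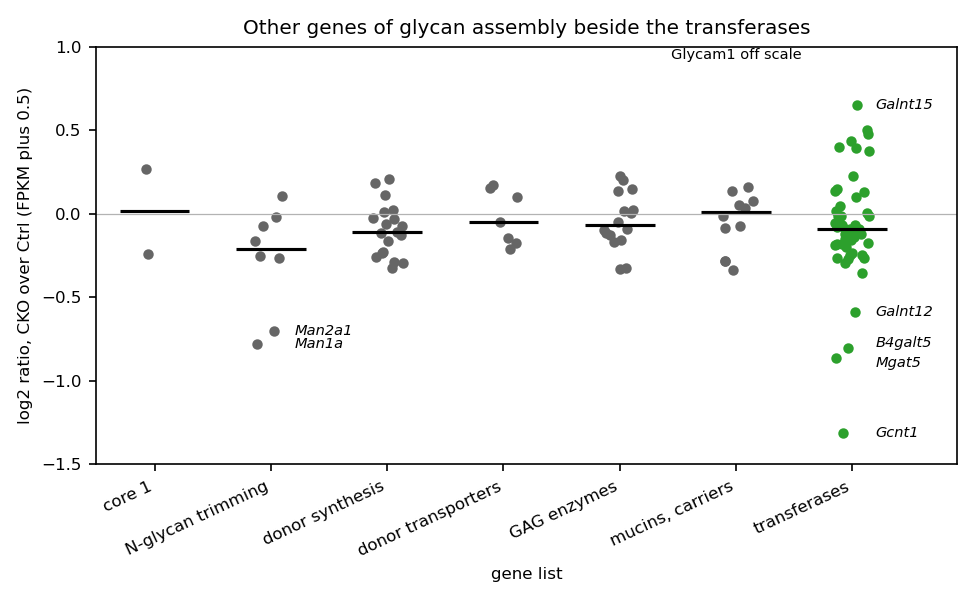
Log2 ratio, CKO over Ctrl, of the measured genes of 6 lists of glycan assembly and of the 49 measured transferases (green); bars are medians and genes past the rule are named. Man1a at -0.78 and Man2a1 at -0.70 stand apart from the rest of their list, and Glycam1, at 3.69, is off the scale.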

How the data were processed

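RNA was sequenced from 1 Ctrl and 1 CKO library. The submitters' processing notes name HISAT, Bowtie2, RSEM and mm10, and their versions and roles are not given in the sources used here. The deposited table gives 1 value per gene and library with no unit in its header. These deposited values are FPKM: multiplied by length in kilobases, the Ctrl column sums to 999609 and the CKO column to 999909. Both were deposited with 2 decimals, and no value is below 0.01. The log2 fold change that the authors deposited equals the log2 ratio of their FPKM columns. Each deposited p-value or false discovery rate belongs to a read test between single libraries and says nothing of the spread within a condition.

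Read numbers were recovered from the deposited p-values. Genes with no read in CKO gave powers of 1 share, which for 318 of 323 such genes returned whole reads within 0.01, and the share of Ctrl was 0.522. For each gene the whole-read pair nearest the estimate from FPKM that gave the printed p-value was taken. The pair was unique for 72 members, and 17 had several pairs, of which the nearest was used. For 3 members (B4galnt3, Galnt9 and St8sia1) a wider search was needed. The procedure was tested on simulated data, and the outcome is not given here. Read ratios were also set beside FPKM ratios taken without the added 0.5 FPKM. The gap exceeded 0.1 log2 units for 4 measured members: B4galnt3, Galnt15, Galnt9 and St3gal4. It did so for 6.93% of all 11392 genes with at least 20 reads in both libraries. With 0.5 FPKM added the set was another one. Gcnt1 (-1.31 against -1.54 on reads) was among those that joined it, and Galnt9 (0.39 against 0.32) left it.

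Counts and medians of the members were set beside those of all genes. Every member may be named; both values are given for members past the rule or called in the deposited table, the 15 most abundant, and in each family the most abundant, highest and lowest. For the pathway lists they are given for genes past the rule and the 2 most abundant. Other values were picked after they were seen. The alternatives were the pseudocount, the filter, the fold, the scaling (the trimmed mean of M-values computed in Python), division by length and the deposited calls. The members and lists were chosen with earlier results of these data known. Galnt17, listed under the symbol Wbscr17, lies outside the rule and had 0 and 1 reads. Python 3.11.15, numpy 2.4.6, pandas 2.3.3 and scipy 1.17.1 were used.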

Additional observations from a re-analysis of the deposited data

How the results depend on the processing

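Over 9 alternatives the median log2 ratio of the members ran from -0.13 to -0.06. Of 297 values of 33 named members, 295 stayed within 0.5 of the width of their interval and 2 moved, both of Galnt15, to 0.81 and 0.82 on reads. Settings that change only the filter or the interval leave a member's ratio as it is, so those values among the 295 could not move. None of the 5 members past the rule changed sign. The main counts were 1 higher and 4 lower of 49 members, against 2.25% and 2.96% of all genes tested. With no filter they were 2 and 7 of 89 (all genes 2.25% and 3.00%), and at a mean of at least 5 FPKM 1 and 1 of 27 (1.66% and 1.36%), where Gcnt1, B4galt5 and Galnt12 lie under the minimum. In library-scaled reads not divided by length they were 2 and 9 of 67 (2.84% and 4.49%). At 2-fold they were 0 and 1 of 49 (0.746% and 0.54%), and in the authors' deposited calls 0 and 1 of 89 (0.615% and 0.639%). The lower count was 3 of 49 with 1 FPKM added (all genes 1.89%), with centred ratios (2.36%) and with the trimmed mean of M-values (2.35%), which each lost Galnt12. Family medians rest on few genes, and 6 of them changed sign in some setting. That of Gcnt was 0.15 with no filter and 0.12 at 5 FPKM, against -0.13. That of the alpha-2,6-sialyltransferases, 0.15, was -0.11 with no filter, -0.02 in library-scaled reads and 0.48 at 5 FPKM, where 1 gene remained. That of B4galnt, 0.05, was -0.07 with no filter, -0.19 in library-scaled reads and -0.17 on recovered reads. B3gnt turned from -0.05 to 0.14 at 5 FPKM, Chst from -0.06 to 0.09 in library-scaled reads, and St3gal from -0.01 to between 0.02 and 0.03 in 4 settings. The cause was not tested. Intervals from reads estimated from FPKM and ratios of recovered reads, both chosen after seeing the data, each gave 1 higher and 4 lower of 49. The shares of all genes were 2.29% and 3.03% with the estimated intervals and 2.64% and 3.95% with the ratios of recovered reads. Depth limits the members under 1 FPKM, each with at most 61 reads in a library. No paired analysis was possible because there is 1 library per group, and for the same reason no replicate could be left out.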
